A study of Mus musculus with 13 samples.

Results

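Granulosa cells are the somatic cells that surround the oocyte, and their hormones and growth factors were followed here through 10 genes: Inha, Inhba, Inhbb, Amh, Fst, Fshr, Foxl2, Cyp19a1, Kitl and Gja1. These were listed by name and found by matching the Ensembl identifiers of the count tables to mouse symbols, and all 10 were present among the 22442 genes listed. The study profiled ribosome footprints (Ribo-seq, the sequencing of RNA stretches that ribosomes shield from RNase I) of mouse oocytes collected in batches of about 100. There were 3 libraries of wild-type (WT) germinal vesicle (GV) oocytes, 3 of Nat10-ZcKO GV oocytes, 2 of WT metaphase II (MII) oocytes and 3 of Nat10-ZcKO MII oocytes. Separately, fragmented RNA of about 2000 WT GV oocytes was incubated with an anti-ac4C antibody (ac4C is N4-acetylcytidine, a modified RNA base) or with IgG, 1 library each (acRIP-seq). Nat10-ZcKO females carried floxed Nat10, encoding the acetyltransferase that makes ac4C, together with Zp3-Cre. That Cre is driven by a zona pellucida gene promoter that is active in growing oocytes and silent in granulosa cells. Mice were on a C57BL/6J background, and for oocyte collection the methods describe females given PMSG, a gonadotropin that makes follicles grow, at 21 days of age. The series' design text also names tamoxifen, of which the study's methods say nothing for these mice. By which of the described routes, culture of GV oocytes or superovulation, the MII oocytes were obtained is not given in the sources used here. The superovulation route adds hCG (human chorionic gonadotropin) after PMSG. If it was used, effects of stage and of hCG cannot be told apart.

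By way of background, the inhibin α subunit (Inha) pairs with a βA (Inhba) or βB (Inhbb) subunit to form inhibin, which lowers FSH release from the pituitary, whereas pairs of β subunits form activin, which raises it. Follistatin (Fst) binds and neutralises activin. Anti-Müllerian hormone (Amh) is a product of granulosa cells of small growing follicles and declines as follicles mature, while FSH receptor (Fshr), aromatase (Cyp19a1) and the transcription factor FOXL2 belong to the granulosa programme of growing and antral follicles. KIT ligand (Kitl) and connexin 43 (Gja1) serve contact between cells, the former towards the KIT receptor on the oocyte and the latter in gap junctions between granulosa cells.

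The statements on the β subunits rest on telling apart a pair of related coding sequences, so their most similar stretch of 120 bases is shown, 5′ to 3′ on the coding strand from the GENCODE M21 transcripts. The Inhba stretch lies in the last exon, 5 of 5, at chr13:16027008-16027127 (GRCm38, plus strand), and the Inhbb stretch in exon 2 of 2 at chr1:119417324-119417443 (minus strand). Capitals mark the 30 positions at which they differ:
Inhba: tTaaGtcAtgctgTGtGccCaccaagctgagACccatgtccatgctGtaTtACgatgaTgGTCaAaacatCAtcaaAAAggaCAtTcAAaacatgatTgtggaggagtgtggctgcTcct
Inhbb: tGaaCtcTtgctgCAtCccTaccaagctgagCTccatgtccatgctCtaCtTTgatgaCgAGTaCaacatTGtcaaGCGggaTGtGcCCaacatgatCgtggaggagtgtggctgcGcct
Even here the identity was 75%, and the longest identical run anywhere between the Inhba and Inhbb coding sequences was 18 bases. No window of 25 bases of the Inha, Inhba, Amh, Fshr, Cyp19a1 or Kitl coding sequences recurred in a transcript of another gene. For Inhbb, Fst, Foxl2 and Gja1 between 0.0989% and 1.18% of windows did, the most being 13 of 1104 windows of Foxl2, which it shares with other forkhead genes among others. The gene spans of Inhba, Fst and Foxl2 overlap genes on the opposite strand (for Inhba Gm48444 and a pseudogene, then Gm47040 and Foxl2os). Whether the overlaps reach the coding sequence was not checked. The strand setting of the counting is not given in the sources used here. Where they do reach it, reads cannot be told apart from those of the opposite partner.

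The libraries held 42360 to 279464 footprint counts each, except the second WT MII library with 4815. Some libraries stood apart. The sum of 12 oocyte marker genes was 54130 to 73662 CPM (counts scaled to a library total of 1e6) in WT GV oocytes and 10905 to 13103 CPM in the Nat10-ZcKO MII libraries, with 11131 CPM in the first WT MII library. In Nat10-ZcKO GV replicate 1 it was 165 CPM, from 7 counts, so that the oocyte label of this library goes against its markers, and in replicate 2 it was 14233 CPM, against 108179 CPM in replicate 3. The 6 adipocyte markers summed to 6374 and 1044 CPM in Nat10-ZcKO GV replicates 1 and 2, and to at most 32.2 CPM in every other library. In WT MII replicate 2 a single gene, Gja4, took 254 of the 4815 counts, and the oocyte markers 1. Nat10 itself had 1 to 11 counts per library, too few to check the genotype labels. Nothing in the labels says that replicates came from separate animals, so p-values below measure the spread between these samples, which may be technical.

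Granulosa gene footprints were present in 10 of the 11 libraries. In WT GV oocytes the 10 genes summed to 4840, 6062 and 5263 CPM, that is 5388 ± 620 CPM (SD, n = 3). In Nat10-ZcKO GV oocytes they summed to 10718, 3829 and 3139 CPM (5895 ± 4190 CPM, SD, n = 3). The highest sum thus belonged to the library with almost no oocyte marker counts, and without it the other Nat10-ZcKO GV libraries averaged 3484 ± 488 CPM (SD, n = 2), below each WT GV library. In MII oocytes the sums were 3144 and 0 CPM in WT and 4166, 2767 and 1346 CPM in Nat10-ZcKO (2760 ± 1410 CPM, SD, n = 3). The 0 of WT MII replicate 2 allows a share of up to 0.0766% by the exact Clopper-Pearson 95% interval, which is below the 0.135% of the lowest of the other libraries; intervals here cover counting error only. The libraries are bulk, and CPM is a share of each library's footprints. Fewer granulosa cells, less RNA per granulosa cell, fewer footprints per RNA and more footprints from other genes therefore cannot be told apart.

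**Figure D1:**
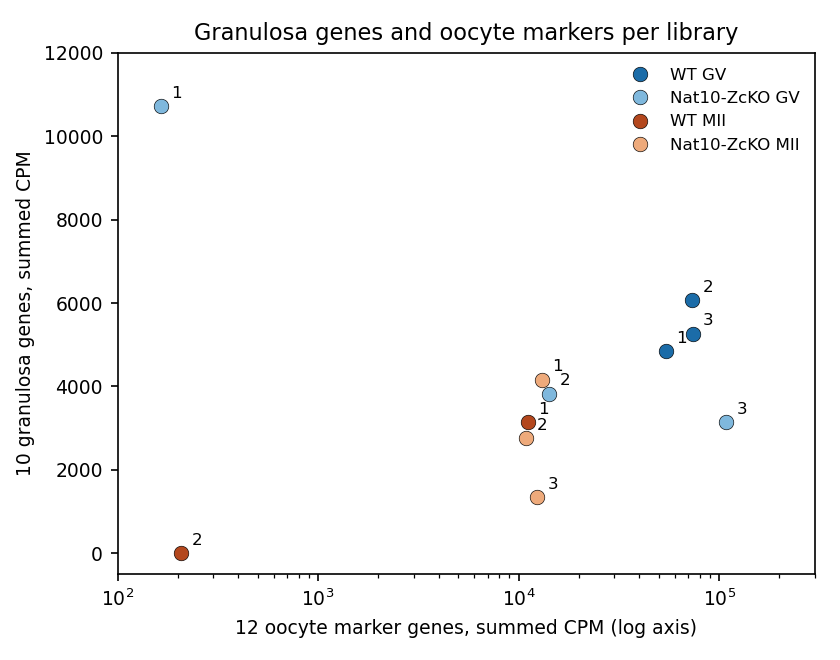
Summed CPM of the 10 granulosa genes (y axis) against summed CPM of 12 oocyte marker genes (x axis, log) in each of the 11 footprint libraries, coloured by group and numbered by replicate. Nat10-ZcKO GV replicate 1 sits at 10718 CPM of granulosa genes and 165 CPM of oocyte markers, and WT MII replicate 2 at 0 and 208 CPM.

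Against the oocyte markers the balance also varied. The ratio of oocyte marker counts to granulosa gene counts was 11.2, 12.1 and 14 for WT GV. For Nat10-ZcKO GV it was 0.0154, 3.72 and 34.5. In MII oocytes it was 3.54 in WT replicate 1 and 3.15, 3.94 and 9.2 in Nat10-ZcKO. The ratio was thus lower in the 4 deeper MII libraries than in the WT GV libraries, beside an oocyte marker sum that was itself lower at MII.

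Corrected for coding length, as TPM (the length-corrected counterpart of CPM), the order of mean levels in WT GV oocytes was Inha (2354 ± 473), Gja1 (1586 ± 197), Inhba (635 ± 170), Inhbb (570 ± 75.3), Amh (363 ± 134), Fst (131 ± 38.5), Foxl2 (128 ± 7.96), Kitl (77.6 ± 63.8), Cyp19a1 (45.9 ± 25.3) and Fshr (8.1 ± 8.99; SD, n = 3 each). Every WT GV library had Inha above Gja1 and Gja1 above Inhba. The values of 5 pairs of neighbours in that order overlapped between libraries, namely Inhba and Inhbb, Inhbb and Amh, Fst and Foxl2, Foxl2 and Kitl, and Kitl and Cyp19a1. Inha ranked 34th to 43rd of the 7760 to 9909 genes detected in WT GV libraries by TPM, and Gja1 46th to 66th. In the 4 deeper MII libraries Gja1 came first among the 10 genes, at 945 to 2256 TPM, with Inha at 241 to 1361 TPM.

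Of the hormone subunits, Inha (chr1:75507077-75510366) gave 1581, 2362 and 2059 CPM in WT GV oocytes and 4698, 1644 and 1158 CPM in Nat10-ZcKO GV oocytes. In MII oocytes it gave 927 and 0 CPM in WT and 1160, 525 and 207 CPM in Nat10-ZcKO. The 4 deeper MII libraries lay below every GV library but for Nat10-ZcKO MII replicate 1, which at 1160 CPM was level with the lowest GV library. Inhba (chr13:16011851-16031621) gave 605, 805 and 468 CPM in WT GV oocytes and 496, 96.7 and 469 CPM in the Nat10-ZcKO ones, the 96.7 CPM resting on 5 counts. In MII oocytes it gave 393 and 0 CPM in WT and 436, 177 and 125 CPM in Nat10-ZcKO. The stages overlapped only through Nat10-ZcKO GV replicate 2. Inhbb (chr1:119415465-119422248) gave 467, 573 and 593 CPM in WT GV libraries, then 519, 38.7 and 292 CPM for Nat10-ZcKO GV, 37.1 and 0 CPM in WT MII and 106, 47.7 and 0 CPM in Nat10-ZcKO MII oocytes. It was thus lower at MII in all libraries apart from the same Nat10-ZcKO GV replicate 2, where it had 2 counts.

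The balance between the β subunits differed by stage. Inhba took 56.4%, 58.4% and 44.1% of the Inhba and Inhbb counts together in WT GV libraries and 48.8%, 71.4% and 61.6% in Nat10-ZcKO GV libraries. In MII oocytes it took 91.4% in WT replicate 1 and 80.4%, 78.8% and 100% in Nat10-ZcKO. Pooled over libraries, the share was 56.9% at GV (95% Clopper-Pearson interval 53.6% to 60.1%, 514 against 390 counts) and 85% at MII (79.5% to 89.5%, 181 against 32 counts). These intervals leave out the spread between libraries. The shares of single GV and MII libraries did not overlap, but the intervals of the nearest did. They were 29% to 96.3% in Nat10-ZcKO GV replicate 2 (5 against 2 counts) and 61.1% to 91% in Nat10-ZcKO MII replicate 2 (26 against 7). Such a share does not depend on library size.

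Fst, the activin antagonist, gave 110, 136 and 72.8 CPM in WT GV libraries, 142, 77.4 and 65 CPM in Nat10-ZcKO GV, 133 and 0 CPM in WT MII and 298, 177 and 100 CPM in Nat10-ZcKO MII oocytes. Its levels overlapped between stages. Relative to Inha it was higher in each of the 4 deeper MII libraries, at 12.6%, 20.4%, 25.2% and 32.7% of the Fst and Inha counts together, than in the 6 GV libraries at 2.93% to 6.5%.

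Amh (chr10:80805243-80807648) showed the widest difference between stages, by the ratio of mean CPM, among the genes with counts at both stages. It gave 412, 333 and 655 CPM in WT GV oocytes and 1582, 251 and 274 CPM in Nat10-ZcKO GV oocytes. In MII oocytes it gave 7.42 and 0 CPM in WT and 21.3, 13.6 and 0 CPM in Nat10-ZcKO, from 1, 0, 4, 2 and 0 counts. The lowest GV library was thus more than 10 times above the highest MII library, and the means of the 6 GV and the 4 deeper MII libraries stood in a ratio of 55.2. Without Nat10-ZcKO GV replicates 1 and 2 this ratio was 39.6. In WT alone the ratio of MII to GV was 0.0173, with a 95% counting interval of 0.000435 to 0.0973. Foxl2, the transcription factor that keeps granulosa identity, gave 117, 104 and 114 CPM in WT GV libraries, 401, 96.7 and 39.7 CPM in Nat10-ZcKO GV, 37.1 and 0 CPM in WT MII and 10.6, 20.4 and 0 CPM in Nat10-ZcKO MII oocytes. Its lowest GV value, 39.7 CPM, was close to its highest MII value of 37.1 CPM.

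Fshr, the receptor through which FSH acts on granulosa cells, was near the limit of detection, with 0, 8 and 1 counts in WT GV and 0, 0 and 1 in Nat10-ZcKO GV libraries. No MII library held a count, where 3 counts would correspond to 16 to 22.2 CPM in the 4 deeper libraries, so the depth could not show whether Fshr differed between stages. Cyp19a1, which converts androgens to oestrogens, gave 61.9, 78.7 and 20.8 CPM in WT GV libraries, 23.6, 0 and 61.3 CPM in Nat10-ZcKO GV, 37.1 and 0 CPM in WT MII and 122, 75 and 50.1 CPM in Nat10-ZcKO MII oocytes, and its stages overlapped.

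Kitl gave 110, 39.4 and 20.8 CPM in WT GV oocytes and 0, 19.3 and 7.22 CPM in Nat10-ZcKO GV oocytes. These did not overlap in CPM, but the nearest values, 20.8 and 19.3 CPM, rest on 2 counts and 1 count. In TPM the same libraries overlapped, at 28.9 in WT GV replicate 3 and 29.1 in Nat10-ZcKO GV replicate 2. The Nat10-ZcKO values rest on 3 counts in all. Their ratio to WT was 0.145, with a 95% counting interval of 0.0283 to 0.468. Kitl was the only 1 of the 10 genes without overlap in CPM between genotypes at GV with WT higher, against 7.24% of the 7143 genes with at least 10 counts. None was lower in every WT library, against 5.85%. In MII oocytes Kitl gave 14.8 and 0 CPM in WT and 5.32, 40.9 and 18.8 CPM in Nat10-ZcKO. Gja1 (chr10:56377330-56402513) gave 1375, 1603 and 1248 CPM in WT GV libraries, 2856, 1605 and 769 CPM in Nat10-ZcKO GV, 1557 and 0 CPM in WT MII and 2006, 1690 and 845 CPM in Nat10-ZcKO MII oocytes. Its GV and MII ranges overlapped nearly in full.

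**Figure D2:**
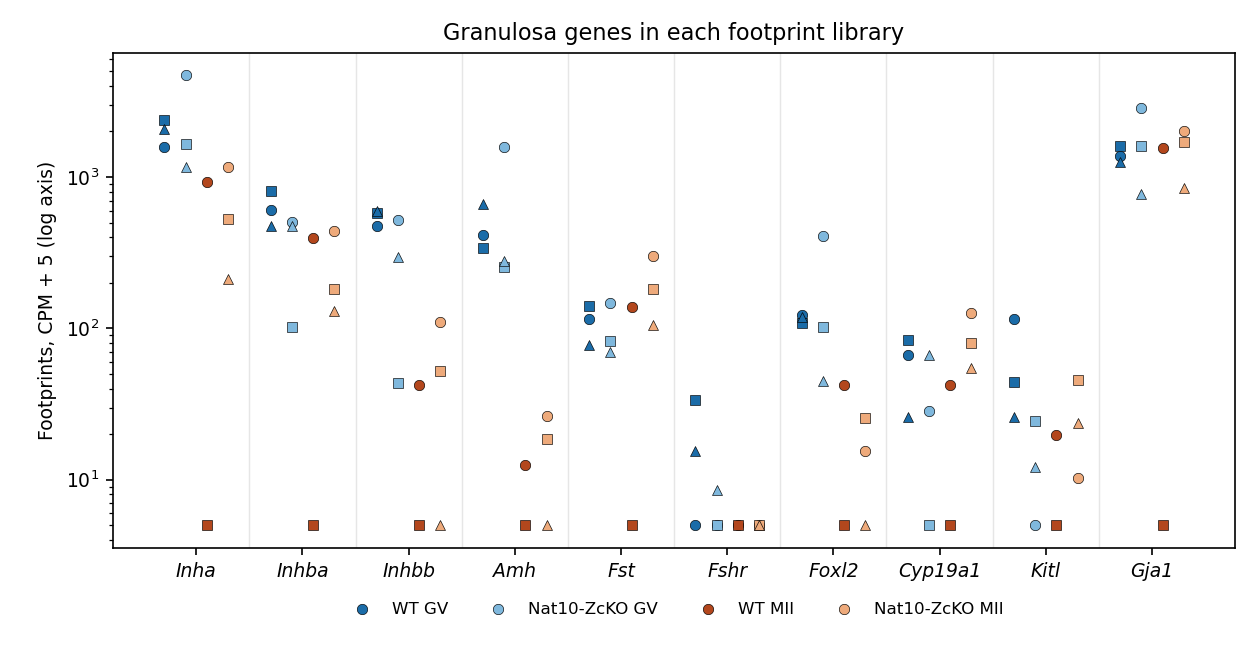
Footprint CPM plus 5 (log axis) of each of the 10 genes in each library, with circles, squares and triangles for replicates 1, 2 and 3 and colours for the groups. Amh sits between 251 and 1582 CPM in the 6 GV libraries and at or below 21.3 CPM in the 5 MII libraries, whereas Gja1 lies between 769 and 2856 CPM in all libraries except WT MII replicate 2 at 0.

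Across the 6 GV and the 4 deeper MII libraries, Amh and Foxl2 were the 2 of the 10 genes that were higher in every GV library, where 5.92% of 8635 genes with at least 10 counts did the same. None of the 10 was lower in every GV library, against 8.23% of those genes. Without Nat10-ZcKO GV replicates 1 and 2, Inhba and Inhbb joined them, making 4 of 10, against 17.5% of 8094 genes, and none was lower, against 14.8%. Between the 3 Nat10-ZcKO GV and the 3 Nat10-ZcKO MII libraries Amh and Foxl2 again did not overlap, where 13.7% of 7031 genes were higher in every GV library, and no member was lower in all of them, against 14.4%. As shares of the 10 genes' counts, Amh made up 5.49% to 14.8% in GV libraries and 0% to 0.511% in the 4 deeper MII libraries, while Gja1 made up 23.7% to 41.9% and then 48.1% to 62.8%. Inha made up 32.7% to 43.8% at GV and 15.3% to 29.5% at MII. Nat10-ZcKO GV replicate 1, with its oocyte markers near 0, had the highest GV shares of Amh (14.8%) and Inha (43.8%), each above every MII library.

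**Figure D3:**
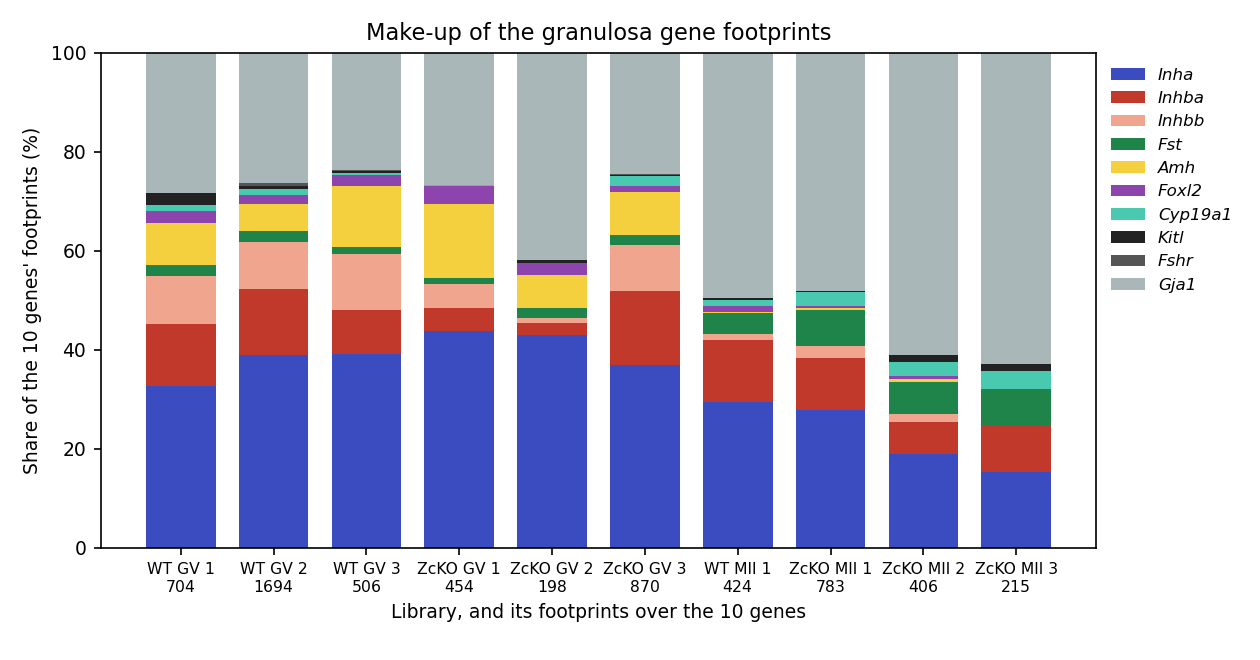
Stacked shares (y axis, %) of the 10 genes' footprint counts in 10 libraries (ZcKO stands for Nat10-ZcKO), with the number of counts under each bar; WT MII replicate 2 held none. The Amh share is 5.49% to 14.8% in the 6 GV libraries and at most 0.511% in the 4 MII libraries, and the Gja1 share is 48.1% to 62.8% in the latter.

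The tests of stage addressed which of these differences exceeded the spread between replicates. They were made with edgeR's quasi-likelihood test over all genes that passed its filter on low counts, with Benjamini-Hochberg adjustment. In Nat10-ZcKO oocytes 6 of the 10 genes passed the filter, and 1, Amh, was lower at MII with a log2 fold change of -5.80 ± 1.03 (SE, n = 3 and 3) and an edgeR adjusted p of 0.0132. Over all 2225 genes tested, 6.56% were called lower and 9.98% higher. With 4, 2 and 0 counts in the Nat10-ZcKO MII libraries, Amh passed the filter only through the GV libraries, so that a call could go only downwards. Amh was no longer called when any single Nat10-ZcKO MII library was left out (edgeR adjusted p 0.0705 to 0.106). Over the alternative settings with more than 1 library per group, its adjusted p ranged from 2.49e-05 with DESeq2 to 0.106 with edgeR. Inhbb (log2 fold change -2.71 ± 1.04, edgeR adjusted p 0.0831) and Inha (-2.11 ± 0.90, edgeR adjusted p 0.107) did not pass. For Inhba the log2 fold change was -0.88 ± 0.76 (edgeR adjusted p 0.398) and for Fst 0.84 ± 0.66 (edgeR adjusted p 0.353). For Gja1 it was -0.30 ± 0.80 (edgeR adjusted p 0.798), and its sign turned under 7 of the alternative settings. The median over the 6 tested members was -1.50, against -0.12 over all genes. When Nat10-ZcKO GV replicates 1 and 2 were both left out, the log2 fold changes were -4.78 for Amh, -2.83 for Inhbb, -1.26 for Inha and -1.28 for Inhba. For Fst and Gja1 they were 1.21 and 0.63. That setting leaves 1 GV library, which is assumed to vary like the MII group, so that no calls are read from it. DESeq2 called Amh and Foxl2 lower, where it called 134 of the 3075 genes it tested lower. Foxl2 did not pass edgeR's filter. It had 2, 3 and 0 counts in the Nat10-ZcKO MII libraries, so that its call too could go only downwards. Its highest Nat10-ZcKO GV value, 401 CPM against 96.7 and 39.7 CPM, came from replicate 1, whose oocyte label goes against its markers.

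In WT oocytes none of the 7 members tested passed, as 0% of the 2045 genes were called lower and 0.293% higher by edgeR in the presence of the shallow second MII library. Amh had a log2 fold change of -5.66 ± 2.13 (SE, edgeR adjusted p 0.126) and Inhbb of -3.89 ± 1.86 (edgeR adjusted p 0.203), both with an unadjusted p under 0.05. Inha stood at -1.57 ± 1.96 (edgeR adjusted p 0.625) and Foxl2 at -1.41 ± 0.97 (edgeR adjusted p 0.358). Unadjusted p-values under 0.05 were found for 113 genes with a higher and 345 with a lower level. DESeq2 called 2 members lower, Amh and Inhbb, where it called 321 of the 2473 genes it tested lower. The WT MII libraries held 1 and 0 counts of Amh and 5 and 0 of Inhbb. Both had enough counts to test only through the GV libraries, so that these calls could go only downwards. Without WT MII replicate 2 the log2 fold changes were -5.72 for Amh, -3.76 for Inhbb and -1.02 for Inha, but 0.32 for Fst and 0.22 for Gja1. The median in that fit was -1.02 over 9 members and -0.35 over all genes. It leaves a lone MII library that is assumed to vary like the GV group, so no calls are read from it. In the main fit the median over the 7 members was -1.41, against -0.67 over all genes. The oocyte markers, none of which edgeR called, had medians of -4.33 over 12 tested in WT and -2.63 over 11 tested in Nat10-ZcKO. The stage by genotype interaction called none of the 8 members tested (edgeR adjusted p 0.789 or above, with a log2 value of 2.41 ± 1.54 for Cyp19a1), against 0.0259% of 3863 genes called higher and 0.777% lower. No member had an unadjusted p under 0.05 in the interaction, and DESeq2 called none.

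**Figure D4:**
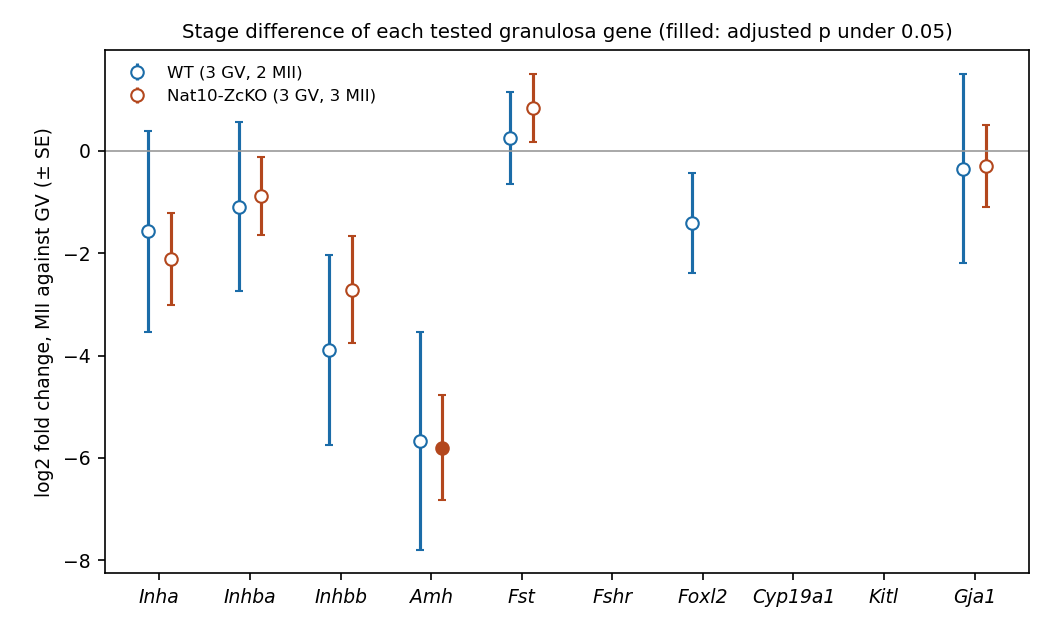
log2 fold change of MII against GV with its SE (y axis) for each tested gene in WT and Nat10-ZcKO oocytes, filled where the edgeR adjusted p was under 0.05. Amh in Nat10-ZcKO (-5.80) is the filled point, WT Amh lies at -5.66 with a wider error, and genes without a point did not pass the filter.

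Between genotypes no member was called. At GV none of the 7 tested members passed, with an unadjusted p under 0.05 for none of them and log2 differences of Nat10-ZcKO against WT from -0.85 ± 0.75 (Inhbb) to 0.65 ± 0.79 (Amh; SE, edgeR adjusted p 0.908 for each). The background was likewise 0%, edgeR having called none of 1765 genes, while unadjusted p-values under 0.05 were found for 70 genes with a higher and 23 with a lower level. DESeq2 called 11 genes higher and 2 lower, none of them a member. The sign for Amh turned to -0.65 without Nat10-ZcKO GV replicate 1, and the signs for Inha, Foxl2 and Gja1 turned as well. At MII none of 5 tested members passed (edgeR adjusted p 0.997 or above, unadjusted p 0.302 or above), the highest log2 difference being 1.12 ± 1.09 for Cyp19a1, against 0% of 2097 genes called higher and 0.191% lower. DESeq2 called no member there either.

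Of 23 receptors and partners of these factors, 9 could be tested between stages in Nat10-ZcKO oocytes. By edgeR 2 were higher and 1 lower at MII, where 9.98% and 6.56% of all 2225 genes tested were called. Each of these 3 partners passed the filter on low counts only through the stage at which it was high, so the direction of its call was fixed beforehand. Amhr2, the receptor of AMH, had 7, 5 and 19 counts at GV and none in the 3 MII libraries, at least 13.8-fold lower at MII when the floor of 3 counts was set over the group (edgeR adjusted p 0.0132). In WT it had 27.5, 53.7 and 41.6 CPM at GV and 7.42 and 0 CPM at MII. Ligand and receptor thus both stood at or below 21.3 CPM in every MII library. Bmpr1a, a type I receptor for bone morphogenetic proteins, had 2 counts in the Nat10-ZcKO GV libraries together and 27, 19 and 30 in the MII libraries, a ratio of 28.5 with a 95% counting interval of 7.63 to 240 (edgeR adjusted p 0.03). Bmpr1b, a related type I receptor, gave 0, 0 and 10.8 CPM at GV and 128, 150 and 175 CPM at MII (log2 fold change 3.83 ± 0.89, edgeR adjusted p 0.0215). edgeR called no gene of the list between genotypes (4 tested at GV, 8 at MII), between stages in WT (4) or in the interaction (12). The partners with most counts are oocyte products. Gdf9 gave 2743 to 3324 CPM in WT GV, 0 to 1682 CPM in Nat10-ZcKO GV and 4280 to 5273 CPM in the 4 deeper MII libraries. Bmp15 gave 550 to 605 CPM, then 0, 348 and 354 CPM, and 75 to 482 CPM at MII. Kit, the receptor of KIT ligand, gave 454 to 822 CPM, then 23.6, 155 and 556 CPM, and 182 to 245 CPM at MII, so that Bmp15 and Kit overlapped between stages through the Nat10-ZcKO GV libraries.

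Genes of other cells and states were measured beside the 10 genes. The 12 other granulosa genes, led by Hsd3b1, Serpine2 and Cyp11a1, summed to 1265 to 2301 CPM in WT GV libraries, 1184 to 6752 CPM in Nat10-ZcKO GV and 1165 to 2724 CPM in the 4 deeper MII libraries, so that their stages overlapped. Hsd3b1, an enzyme of progesterone synthesis, gave 385 to 1027 CPM in WT GV and 443 to 1341 CPM in those MII libraries. The 12 genes of cumulus expansion and the LH response summed to 57.7 to 401 CPM in GV and to 852 to 3723 CPM in the 4 deeper MII libraries, without overlap. Their leading gene Ptx3, a matrix protein of the expanded cumulus, had 2 counts in the 6 GV libraries together and 285, 221, 62 and 127 counts in those MII libraries. Only 2 of these 12 genes could be tested between stages in Nat10-ZcKO, and both, Ptx3 and Tnfaip6, were higher at MII (edgeR adjusted p 0.0132 each). With 2 and 0 counts over the Nat10-ZcKO GV libraries, both passed the filter on low counts only through the MII libraries. The direction of their calls was thus fixed beforehand and tells nothing of the rest of the list. Like Amh, these genes and the 3 partners called were no longer called when any single Nat10-ZcKO MII library was left out, since edgeR then called none of the 3037 to 3168 genes tested, with unadjusted p-values under 0.05 for 419 to 495 genes in the higher and 281 to 341 in the lower direction. Stromal markers (6 genes) summed to 371 to 5194 CPM at GV and 6.26 to 74.2 CPM in the 4 deeper MII libraries, with Dcn and Lum at 0 in the latter. Smooth muscle markers (4 genes) summed to 614 to 2880 and 51.9 to 157 CPM, and theca markers (4 genes) to 31.2 to 331 and 5.32 to 20.4 CPM. The smooth muscle sum rested on Myh11 in WT GV libraries, with 96, 249 and 58 counts. Acta2, Tagln and Des had 0 to 5 counts each there, while Acta2 had 62 in Nat10-ZcKO GV replicate 1 and 1 in replicate 3. In Nat10-ZcKO, edgeR called all 3 stromal genes tested lower at MII (Col1a1, Col1a2 and Col3a1, log2 fold changes -4.89 to -6.31, adjusted p 0.0132 each). It did the same for Myh11, the single smooth muscle gene tested (-3.06, adjusted p 0.0199), in the same fit that called Amh. The 3 stromal genes, like Amh, passed the filter on low counts only through the GV libraries. The defining theca genes Cyp17a1 and Insl3 were at 0 in every MII library, and Hsd3b6 in all libraries. Insl3 held only 5 counts over all libraries and was at 0 in each Nat10-ZcKO GV library too. Cyp17a1 was also at 0 in Nat10-ZcKO GV replicate 2. Endothelial markers (4 genes) lay at 6.87 to 165 and 68.2 to 141 CPM and immune markers (4 genes) at 7.22 to 189 and 0 to 31.9 CPM. Nat10-ZcKO GV replicate 1 held the highest GV value of each of these lists, and the part of any of these cells in the levels of the 10 genes was not tested.

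The genes whose footprint pattern was most like the summed 10 genes were sought among 3838 others with at least 50 counts, by Pearson's r of log2(CPM + 10) over the 11 libraries. They were Chd4 (0.987), Huwe1 (0.986), Atp5b (0.985), Dync1h1 (0.982) and Prkar1a (0.979), all genes of general cell function that share the 0 of WT MII replicate 2. Over the 10 libraries without it, which was chosen after seeing the data, the closest were Mdh2 (0.965), Sulf2 (0.953), Pex5 (0.947), Smarca4 (0.944) and Hsd17b1 (0.942), the last an oestrogen-forming enzyme of granulosa cells. All genes share each library's depth and normalisation, so that these values are a description of likeness in these samples.

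In the acRIP-seq libraries of WT GV oocytes, granulosa RNA was also found. The 10 genes held 708 of 970997 gene counts with anti-ac4C (0.0729%) and 106 of 116232 with IgG (0.0912%), against 0.484% to 0.606% of footprints in the WT GV Ribo-seq libraries. These shares come from different molecules (RNA fragments and footprints), counted regions and batches of oocytes, so their gap does not measure a difference in granulosa content. With 1 library per antibody there was no replicate check, and the ratios carry counting error only. Inha had 250 counts with anti-ac4C and 39 with IgG, a CPM ratio of 0.767 (95% interval 0.546 to 1.1). Inhba had 135 and 12 counts (1.35, 0.746 to 2.67), and Inhbb 92 and 14 (0.787, 0.446 to 1.5). Both β subunits thus lay within counting error of equal recovery. Gja1, with 100 and 23 counts, was the single member whose interval lay below 1, at 0.52 (0.328 to 0.858), and 17.8% of the 8752 genes with at least 10 counts had the same. Amh had 24 counts and none with IgG, where 3 counts would be 25.8 CPM against its 24.7 CPM with anti-ac4C, so no enrichment could be read from it. Foxl2 had 0 counts in either library, although its footprints were 112 ± 6.96 CPM in WT GV oocytes (SD, n = 3). Fst had 34 and 5 counts, Cyp19a1 58 and 8, Kitl 13 and 5, and Fshr 2 and 0. No member had a lower bound above 2, as 5.02% of 8752 genes with at least 10 counts did. The median ratio was 0.787 over the 7 members with IgG counts and 0.982 over all genes, and the summed ratio was 0.8 (0.651 to 0.99), against 0.653 (0.633 to 0.674) for the 12 oocyte markers.

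**Figure D5:**
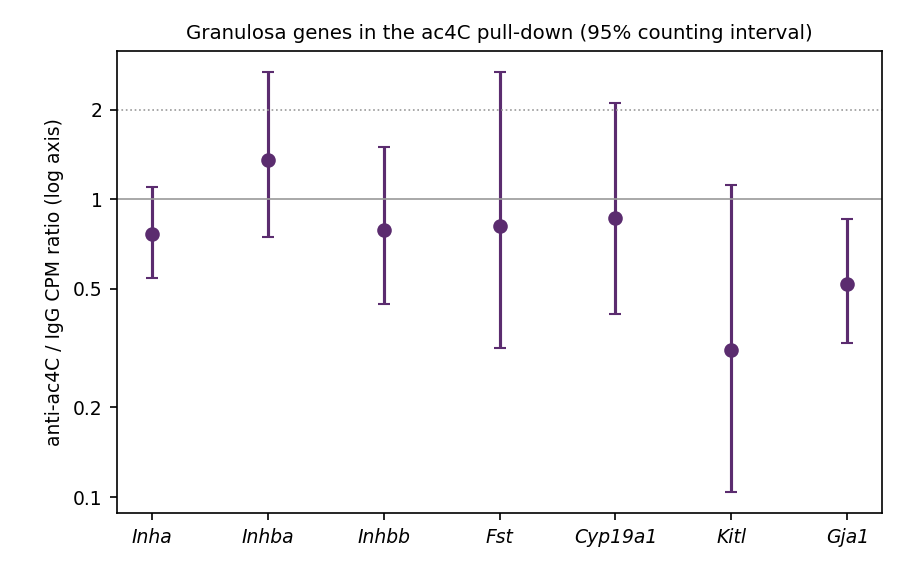
Ratio of anti-ac4C to IgG CPM (y axis, log) with its 95% counting interval for the 7 genes with IgG counts, 1 library per antibody, with lines at 1 and 2. Gja1 at 0.52 has its whole interval below 1, and no gene has its interval above 2.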

How the data were processed

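Footprint counts per gene over coding sequence, and read counts per gene for acRIP-seq, were used as deposited by the authors. According to the submitters' processing notes the authors trimmed reads with cutadapt, aligned them to mm10 with STAR and counted them with HTSeq; versions, the strand setting and multi-mapping settings are not given in the sources used here. Rows for reads outside genes (46.7% of IgG and 17.1% of ac4C reads) or ambiguous ones (0.392% and 0.75%) were left out. CPM and TPM were computed from these counts, TPM with union coding lengths of GENCODE M21 (GRCm38), to which 22399 of 22442 identifiers matched. Tests used edgeR 4.0.16 (TMM, filterByExpr, glmQLFit, glmQLFTest, Benjamini-Hochberg, threshold 0.05) on the libraries of each comparison, after a check on simulated counts. DESeq2 1.42.0, library-size scaling, a filter of 1 count, a replicate block, all 11 libraries in a single fit and leave-one-out fits were the alternatives. Ratios of counts have exact binomial 95% intervals. The 10 members, the gene lists and the tests were chosen with earlier results of these data known. Named were all members, the 5 most abundant genes of a list where useful, partners passing a test, and the 5 most similar genes.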

Additional observations from a re-analysis of the deposited data

How the results depend on the processing

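Between genotypes and in the interaction, the count of members called stayed at 0 under DESeq2, library-size scaling, no filter on low counts, the replicate block and, for the genotype comparisons, the single fit of all 11 libraries. Leaving out single libraries gave 0 to 0 members at GV, 0 to 4 at MII and 0 to 4 in the interaction, the 4 arising in each case without WT MII replicate 1, which leaves the shallow library alone. For stage in WT, the count of 0 became 2 with DESeq2 and 3 with library size only, and stayed at 0 without any single WT GV library. The genes called were Amh and Inhbb, joined by Foxl2 with library size only, each with at most 5 counts in any WT MII library. Leaving out either WT MII library leaves 1 in that group, so no calls are read from those fits. Without Nat10-ZcKO GV replicates 1 and 2 together, 1 GV library is left and assumed to vary like the MII group, so no calls are read from that fit. For stage in Nat10-ZcKO, the count of 1 became 2 with DESeq2 and 2 with all 11 libraries in a single fit. On leaving out a library it was 0 to 2 (2 without Nat10-ZcKO GV replicate 3). The replicate block kept it at 1 and left all other counts of members at 0. Same-numbered libraries had correlations of their deviations from -0.03 to 0.21, so the numbers were not treated as pairs, and for WT stage the block left 0 of 2045 genes called. For acRIP-seq, 0 members became 2 with the ratio itself above 2. These were Amh and Fshr, with 24 and 2 counts with anti-ac4C and none with IgG, so that their ratios are undefined and were counted as above 2. The highest member ratio that could be formed was 1.35 (Inhba). The number was 7 without scaling to library size, where the ac4C library is deeper, and 0 with TMM factors.

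Over all 33 log2 fold changes of tested members, 50 of 402 recomputed values changed sign, in 15 of the 33: Amh, Foxl2, Gja1 and Inha between genotypes at GV, Gja1, Inha and Inhba between genotypes at MII, Fst and Gja1 for stage in WT, Gja1 and Inhba for stage in Nat10-ZcKO, and Amh, Foxl2, Inha and Inhba in the interaction. For the 14 whose log2 values are given above, 11 of 158 did. Gja1 between stages in Nat10-ZcKO was 0.22 with DESeq2, 0.62 without a filter, 0.21 with all 11 libraries, 0.63 without Nat10-ZcKO GV replicates 1 and 2, and -0.23 to 0.34 on leaving out a library. Amh between genotypes at GV was -0.04 without a filter, -0.53 without Nat10-ZcKO GV replicates 1 and 2, and -0.65 (without replicate 1) to 0.84 on leaving out a library. Inhba between stages in Nat10-ZcKO was -1.20 to 0.10, the latter without Nat10-ZcKO GV replicate 3. With TMM-scaled library sizes the summed members averaged 7223 CPM for the WT GV group and 5400 CPM for its Nat10-ZcKO counterpart, the opposite order to 5388 and 5895 CPM. The cause was not tested. Over all genes, the 6 higher and 0 lower calls for stage in WT became 90 and 321 with DESeq2 and 343 and 654 with library size only. The 222 and 146 in Nat10-ZcKO became 134 and 60 under the replicate block and 368 and 134 with DESeq2. Between genotypes, the 0 and 4 at MII became 0 and 34 with DESeq2, and the 0 and 0 at GV became 213 and 167 without Nat10-ZcKO GV replicate 3. Depth limits Fshr, Kitl and, at MII, Amh, Amhr2 and Foxl2, which rest on few counts.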
